A study of Glycine max with 18 samples.

Results

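Kunitz trypsin inhibitor transcripts of soybean (Glycine max) were followed from the young embryo to the seedling. The 3 genes were taken by identifier out of 51546 gene identifiers: Glyma.01G095000 on chromosome 1, known as KTI1, Glyma.08G341500 on chromosome 8, known as KTI3, and Glyma.08G341000, which lies beside KTI3 in identifier order with 4 identifiers between them. All 3 were present in each of the 18 libraries. The libraries came from cultivar Williams 82, with 3 biological replicates at each of 6 stages. The stages were cotyledon-stage embryos from seeds of 2.5 to 3.5 mm, early maturation embryos from seeds of 6 to 7 mm, mid maturation embryos from seeds of 200 to 250 mg, late maturation embryos from seeds that weighed 230 to 500 mg and were yellow throughout, dry seed at maturity, and whole seedlings 8 days after sowing. No treatment or mutation distinguished the stages, and all plants were of the 1 cultivar. The labels were followed for the seedlings, whose column headings hold the letters COT. The sources used here do not say whether the replicates came from separate plants, so p-values measure the spread between these libraries. The names KTI1 and KTI3 are also symbols in the RefSeq gene table of Glycine max v4.0, on chromosomes 1 and 8. That table matched 0 of the 51546 identifiers, so it could not pair a name with any of the 3 genes. It also holds the symbol KTI-1 on chromosome 8, with 0 protein-coding genes between it and KTI3. Whether that entry is Glyma.08G341000 could not be checked. Glyma.08G341000 is counted among the Kunitz genes by the choice of identifiers, which was not checked against an annotation.

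Kunitz inhibitors are small, disulfide-bonded proteins that bind the active site of trypsin and related serine proteases and block it. In soybean they accumulate in the protein bodies of the seed beside the storage globulins, and they lower the digestibility of raw soybean meal. KTI3 is known as the gene of the main Kunitz inhibitor protein of the soybean seed, and KTI1 as a related gene of the same family that is also transcribed in seeds.

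Transcript abundance is given as the deposited normalized value, which is CPM (counts scaled to library size) with a TMM scaling factor for each library. Libraries held 3572134 to 8776240 reads, and 3 reads, the floor below which a gene could not be told from one without reads, were worth 0.263 to 1.30 in value. Floors cover counting error only. The values are not corrected for transcript length, so the 3 genes are compared by their changes and by their ratio across stages, not by their absolute levels. A log2 difference is on the scale of log2(value + 1), which understates the change of low genes, and comes from limma fitted to all 18 libraries. A gene was called when its Benjamini-Hochberg adjusted p over 36872 tested genes was under 0.05 and the log2 difference was at least 1 in size. All 3 Kunitz genes passed the filter for testing (3 or more libraries with a value of 1 or more). Replicates of a stage correlated at r of 0.974 to 0.990, taken over genes that are not independent replicates. Late maturation replicate 1 stood closer to mid maturation (r 0.748 to 0.762) than the other late maturation libraries (0.703 to 0.729). Early maturation replicate 3 likewise stood closer to mid maturation (0.863 to 0.879) than the other early maturation libraries (0.827 to 0.853).

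The 3 transcripts shared 1 broad course. Their highest values came in the filling embryo, at early or mid maturation. Against those peaks the transcripts were low at the cotyledon stage and low again in yellow seed. They differed in when the peak came and in what was left in the dry seed. The moderated F test of limma found differences among the 6 stages for KTI3 (F = 1646, adjusted p = 1.85e-22), KTI1 (F = 906, adjusted p = 8.05e-21) and Glyma.08G341000 (F = 765, adjusted p = 2.99e-20). That test passed 36526 of 36872 genes (99.1%), so passing it set the Kunitz genes apart from few others. By the size of F, KTI3 ranked 5, KTI1 57 and Glyma.08G341000 89.

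**Figure D1:**
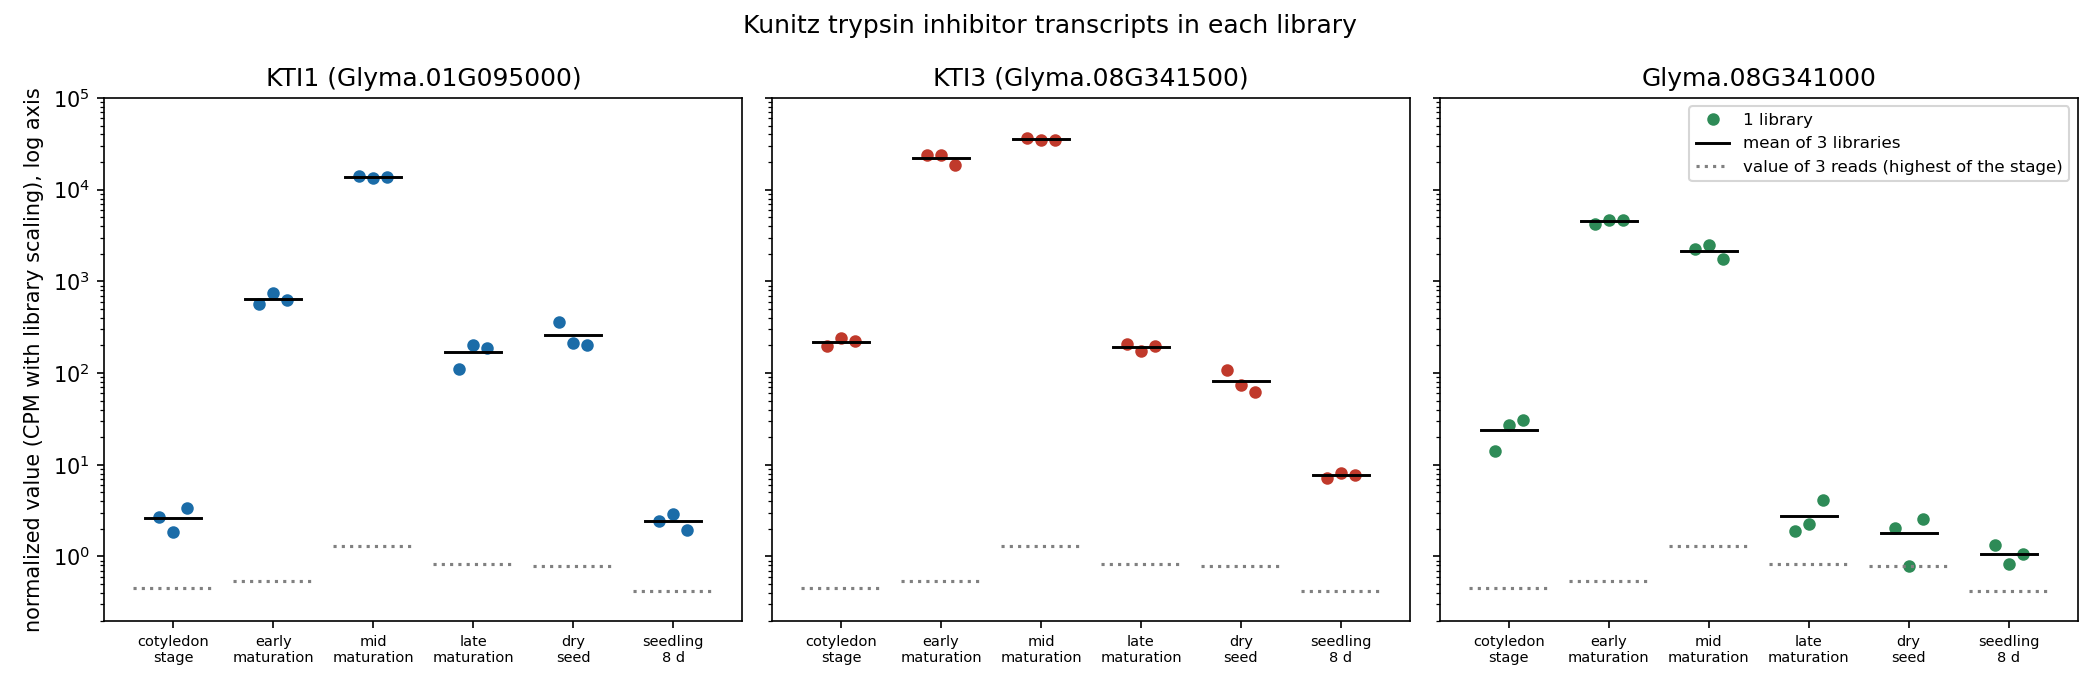
Normalized value (log axis) of each gene in every library by stage; points are libraries, black lines are means of 3 libraries and dotted lines the value of 3 reads (highest of the stage). KTI3 and KTI1 had their highest normalized values at mid maturation, with means of 35649 and 13769. By share of reads KTI3 had the larger mean at early maturation, with libraries that overlapped those of mid maturation. Glyma.08G341000 was highest at early maturation, with a mean of 4505.

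KTI3 was far above the floor of 3 reads already in the youngest embryos. In cotyledon-stage embryos its values were 197, 239 and 223. In early maturation embryos they were 23857, 23933 and 18358, and in mid maturation embryos 36918, 35227 and 34801. Every library of mid maturation thus lay above every library of early maturation, and both far above the cotyledon stage. Late maturation embryos held 206, 173 and 195, dry seed 107, 74.4 and 62.7, and seedlings 7.13, 8.16 and 7.81. Late maturation values overlapped those of the cotyledon stage, and each of the following stages lay below the one before it without overlap. At early maturation KTI3 had the highest value of all genes in each of the 3 libraries, holding 2.40% ± 0.299 of all reads (SD, n = 3). Its share at mid maturation was 2.28% ± 0.103, and there it ranked 7 or 8. The higher normalized value at mid maturation thus did not come with a larger share of the reads. The scaling factors put the summed values of a library between 718776 and 1603763, with the mid maturation libraries at the top. Bulk samples cannot tell fewer cells of a type from less RNA per cell.

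KTI1 was low in the youngest embryos, though above the floor of 3 reads in each library. Its values there were 2.71, 1.85 and 3.37, from 18, 20 and 26 reads. At early maturation they were 562, 754 and 620, and at mid maturation 13934, 13522 and 13852. Mid maturation was thus a single high stage for KTI1, with early maturation at 4.69% of the mid maturation mean. Late maturation embryos held 111, 203 and 189, dry seed 359, 214 and 203, and seedlings 2.44, 2.91 and 1.93. Dry seed libraries were all above those of late maturation, if narrowly, and seedlings overlapped the cotyledon stage. At mid maturation KTI1 held 0.880% ± 0.0323 of all reads (SD, n = 3) and ranked 15 or 16 in its libraries. The coefficient of variation of its value at that stage was 1.58%, against a median of 6.22% over the 69 genes with a mean of at least 1000 there.

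By normalized value, Glyma.08G341000 had its peak earlier than the others. By share of reads, the KTI3 mean was also highest at early maturation, at 2.40% against 2.28% at mid maturation. Early maturation libraries held 2.06% to 2.60% and mid maturation libraries 2.20% to 2.39%, which overlapped. At the cotyledon stage the values of Glyma.08G341000 were 14.3, 27.1 and 30.9. Early maturation embryos held 4230, 4666 and 4618, and mid maturation embryos 2249, 2520 and 1737. All early maturation libraries were above all those of mid maturation. Its values were 1.91, 2.28 and 4.18 in late maturation embryos. Dry seed held 2.07, 0.791 and 2.57, and seedlings 1.32, 0.830 and 1.05. Dry seed overlapped both late maturation and seedlings, and all 3 stages rested on few reads, 38 in the late maturation libraries together, 22 in those of dry seed and 31 in those of seedlings. The dry seed library at 0.791 held 3 reads, which is the floor itself. At early maturation the gene held 0.493% ± 0.0348 of all reads (SD, n = 3) and ranked 11 to 13.

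The 3 genes summed held 0.0336% ± 0.00447 of the reads at the cotyledon stage and 2.97% ± 0.282 at early maturation (SD, n = 3 at each stage). Their share was 3.30% ± 0.130 at mid maturation and 0.0320% ± 0.00289 at late maturation. Dry seed held 0.0299% ± 0.00843 and seedlings 0.00152% ± 0.000118. The summed share was thus near 3% only in filling embryos, and was at most 0.0394% in any library of the other stages.

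Early maturation was compared with the cotyledon stage first. All 3 Kunitz genes rose, where 8.53% of the 36872 tested genes were called higher. KTI1 averaged 645 ± 98.3 in early maturation embryos and 2.64 ± 0.762 in cotyledon-stage embryos (SD, n = 3 each), 244-fold higher (log2 difference 7.48, SE 0.22, limma adjusted p = 1.14e-16). KTI3 averaged 22049.5 ± 3197 in early maturation and 219.7 ± 21.1 in cotyledon-stage embryos, 100.4-fold higher (log2 difference 6.64, SE 0.16, limma adjusted p = 9.38e-18). Glyma.08G341000 averaged 4505 ± 239 in early maturation and 24.1 ± 8.70 in cotyledon-stage embryos, 187-fold higher (log2 difference 7.55, SE 0.26, limma adjusted p = 1.73e-15). Among all tested genes ordered from the largest rise, these differences ranked 22 for KTI1, 28 for KTI3 and 19 for Glyma.08G341000, while the median of all genes was 0.00.

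Mid maturation against early maturation separated the 3 genes. KTI1 rose again, KTI3 did not reach the limit for a call, and Glyma.08G341000 fell. In this step 11.3% of tested genes were called higher and 14.7% lower. KTI1 averaged 13769 ± 218 in mid maturation embryos and 645 ± 98.3 in early maturation embryos, 21.3-fold higher (log2 difference 4.42, SE 0.22, limma adjusted p = 8.77e-13), and ranked 60 from the largest rise. KTI3 averaged 35649 ± 1119 in mid maturation and 22049.5 ± 3197 in early maturation embryos, a 1.62-fold difference (log2 0.70, SE 0.16, limma adjusted p = 0.00102) that is under the limit of 1. Without early maturation replicate 3, which had the lowest KTI3 value of its stage, it was 0.58 (limma adjusted p = 0.00577). The early maturation mean was 61.9% of the mid maturation mean. Glyma.08G341000 averaged 2169 ± 397 in mid maturation and 4505 ± 239 in early maturation embryos, 2.08-fold lower (log2 difference -1.07, SE 0.26, limma adjusted p = 0.00122). That call is near the limit: without mid maturation replicate 3 the log2 difference was -0.92 and after upper-quartile rescaling -0.996, and neither was called. With library-size scaling only, a setting added after the data were seen, the difference was larger, at -1.84 (limma adjusted p = 1.75e-06), while the share of reads was 0.138% ± 0.0234 at mid maturation and 0.493% ± 0.0348 at early maturation. The same setting gave 3.65 for KTI1, which was called, and -0.07 for KTI3 (limma adjusted p = 0.739). The KTI3 rise at this step was thus not detectable with library-size scaling only. That scaling moved the median of all genes in this step by -0.49, to -0.55.

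**Figure D2:**
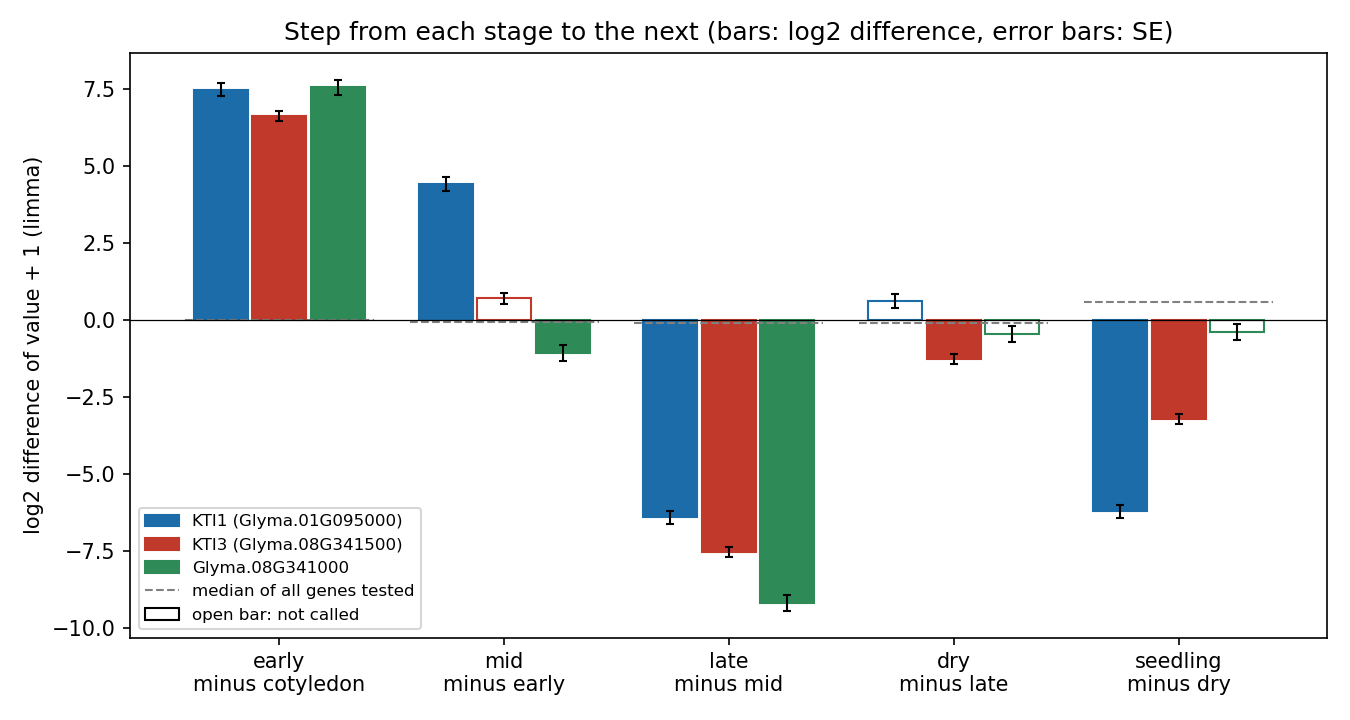
Log2 difference of value + 1 between each stage and the stage before it, from limma, for KTI1, KTI3 and Glyma.08G341000; error bars are SE, open bars did not pass the call, and dashed lines mark the median of all genes tested. The genes moved together at the steps into early and late maturation and apart at the step into mid maturation, where KTI1 was at 4.42, KTI3 at 0.70 and Glyma.08G341000 at -1.07.

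Late maturation against mid maturation covers the passage to the fully yellow seed. All 3 genes fell, where 23.6% of tested genes were called lower. KTI1 averaged 168 ± 49.2 in late maturation and 13769 ± 218 in mid maturation embryos (SD, n = 3 each), 82.1-fold lower (log2 difference -6.40, SE 0.22, limma adjusted p = 4.43e-16). For KTI3 the means were 192 ± 16.8 in late maturation and 35649 ± 1119 in mid maturation, 186-fold lower (log2 difference -7.54, SE 0.16, limma adjusted p = 2.73e-18). Glyma.08G341000 averaged 2.79 ± 1.22 in late maturation and 2169 ± 397 in mid maturation embryos, 778-fold lower (log2 difference -9.19, SE 0.26, limma adjusted p = 3.38e-17). Counted from the deepest fall among all tested genes, they ranked 36, 13 and 2, with the median of all genes at -0.11. Under all alternative settings, which included other pseudocounts and edgeR and DESeq2 on recovered reads, the difference of Glyma.08G341000 lay between -9.67 and -8.32 and was called each time.

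Between dry seed and late maturation the genes differed again. KTI3 fell, in a step where 14.5% of tested genes were called lower and 7.84% higher, and the others were not called. KTI3 averaged 81.3 ± 22.9 in dry seed and 192 ± 16.8 in late maturation embryos, 2.36-fold lower (log2 difference -1.26, SE 0.16, limma adjusted p = 1.69e-06). KTI1 averaged 259 ± 87.2 in dry seed and 168 ± 49.2 in late maturation embryos, and the log2 difference was 0.62 (SE 0.22, limma adjusted p = 0.0211), under the limit of 1. This difference rested on single libraries: it was 0.35 without late maturation replicate 1 (limma adjusted p = 0.168) and 0.36 without dry seed replicate 1 (limma adjusted p = 0.176). Glyma.08G341000 averaged 1.81 ± 0.917 in dry seed and 2.79 ± 1.22 in late maturation embryos (log2 difference -0.44, SE 0.26, limma adjusted p = 0.166), a difference that was not detectable at this depth. Late maturation samples are labelled as embryos and dry samples as seeds, so stage and tissue cannot be told apart here.

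In seedlings against dry seed, KTI1 and KTI3 fell, where 19.8% of tested genes were called lower and 41.8% higher. KTI1 averaged 2.43 ± 0.487 in seedlings and 259 ± 87.2 in dry seed, 107-fold lower (log2 difference -6.20, SE 0.22, limma adjusted p = 1.51e-16). KTI3 averaged 7.70 ± 0.527 in seedlings and 81.3 ± 22.9 in dry seed, 10.6-fold lower (log2 difference -3.21, SE 0.16, limma adjusted p = 8.36e-14). Glyma.08G341000 stood at 1.07 ± 0.247 in seedlings and 1.81 ± 0.917 in dry seed and was not called (log2 difference -0.39, SE 0.26, limma adjusted p = 0.164). The median of all genes was 0.58 in this step, against which KTI1 and KTI3 were lower. Seedling and seed are also different tissues, which cannot be told apart from stage.

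Over longer spans, KTI1 was 5206-fold higher in mid maturation than in cotyledon-stage embryos (log2 difference 11.91, SE 0.22, limma adjusted p = 1.57e-20) and ranked 10 from the largest rise of all tested genes. KTI3 was 162-fold higher (log2 difference 7.34, SE 0.16, limma adjusted p = 5.04e-19) and Glyma.08G341000 89.97-fold higher (log2 difference 6.48, SE 0.26, limma adjusted p = 7.23e-15), in a comparison in which 12.8% of tested genes were called higher. In dry seed against mid maturation embryos all 3 fell, where 31.8% of tested genes were called lower. The log2 differences were -5.78 for KTI1, -8.79 for KTI3 and -9.63 for Glyma.08G341000, the last of which ranked 1 from the deepest fall of all tested genes. With library-size scaling only, the mid minus cotyledon differences were 10.93 for KTI1, 6.25 for KTI3 and 5.41 for Glyma.08G341000, all called, with the median of all genes moved by -0.77.

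The end of the series did not return all 3 genes to their cotyledon-stage level. In seedlings against cotyledon-stage embryos, KTI3 was 28.5-fold lower (log2 difference -4.66, SE 0.16, limma adjusted p = 3.54e-16) and Glyma.08G341000 22.5-fold lower (log2 difference -3.54, SE 0.26, limma adjusted p = 3.87e-11), where 22.7% of tested genes were called lower. KTI1 averaged 2.43 ± 0.487 in seedlings and 2.64 ± 0.762 in cotyledon-stage embryos and was not called (log2 -0.08, SE 0.22, limma adjusted p = 0.757), from 67 reads in the seedling libraries together and 64 in those of the cotyledon stage.

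The order of the stages differed between the genes. From the highest mean, KTI1 ran mid, early, dry, late, cotyledon and seedling, and the neighbours in that order that were not called different were dry seed with late maturation and cotyledon stage with seedling. For KTI3 the order was mid, early, cotyledon, late, dry and seedling. By share of reads its early maturation mean was above that of mid maturation, with overlapping libraries. Mid and early maturation were not called different. Cotyledon stage and late maturation were likewise not called different (log2 difference -0.20 for late minus cotyledon, limma adjusted p = 0.299). Glyma.08G341000 ran early, mid, cotyledon, late, dry and seedling, and late maturation, dry seed and seedling were not called different as neighbours. Of the other neighbours in these orders, KTI1 was higher at late maturation than at the cotyledon stage (log2 difference 5.51, limma adjusted p = 1.58e-15) and Glyma.08G341000 lower (-2.71, limma adjusted p = 3.24e-09), where 20.4% of tested genes were called higher and 29.2% lower. KTI1 was also lower in dry seed than at early maturation (log2 difference -1.35, limma adjusted p = 6.79e-06), where 35.0% of tested genes were called lower. Dry seed therefore stood above late maturation by mean for KTI1 and below it for the others.

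The string of calls over the 5 steps was a different one for each gene. The KTI1 string (higher, higher, lower, not called, lower) belonged to 41 genes, KTI1 among them, which is 0.111% of those tested. The KTI3 string (higher, not called, lower, lower, lower) belonged to 7 genes (0.0190%), KTI3 among them. That of Glyma.08G341000 (higher, lower, lower, not called, not called) belonged to 91 genes (0.247%). It rests on the mid against early maturation call, lost after upper-quartile rescaling (-0.996) and without mid maturation replicate 3 (-0.92). The KTI3 string likewise rests on a difference of 0.70 at that step, under the limit of 1. In all, 230 different strings occurred.

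Whether the 3 genes keep a fixed proportion was examined through their ratio within a library (log2 of value + 1 for means and tests). A constant difference in transcript length cancels from the change between stages in the plain ratio, but not fully on the log2(value + 1) scale where values are near 1, as for Glyma.08G341000 from late maturation on and KTI1 at the cotyledon stage and in seedlings. All 3 ratios varied with stage. Over 18 libraries, a permutation test of the F statistic over the 6 stages with 100000 resamples gave p = 1e-05, the smallest it can give, for each of the 3 pairs, and 1e-05 after Benjamini-Hochberg adjustment over the pairs. Without a pseudocount, a setting added after the data were seen, the permutation p was at most 2e-05. For single steps, 3 libraries against 3 cannot go below p = 0.10 in an exact two-sided permutation test, so the step values are read from their ranges. Of 15 step comparisons of a ratio, 12 had ranges that did not overlap, each at that smallest p. The 3 ratios are not independent, since on the log2 scale each follows from the others. Ratios of other gene pairs were not computed, and 99.1% of tested genes differed among stages by the F test. These counts therefore cannot tell whether the Kunitz pairs differ from other pairs.

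The ratio of KTI3 to KTI1 was lower at each stage than at the one before it up to dry seed. The plain ratio of values was 66.1 to 129 in cotyledon-stage embryos, 29.6 to 42.4 at early maturation and 2.51 to 2.65 at mid maturation. It was 0.854 to 1.85 at late maturation and 0.298 to 0.347 in dry seed, and 2.81 to 4.05 in seedlings. No neighbouring stages overlapped. On the log2(value + 1) scale the mean was 5.94 ± 0.397 at the cotyledon stage and -1.64 ± 0.117 in dry seed (SD, n = 3 each), a difference of 7.58 between the highest and the lowest stage, or 8.07 without a pseudocount. Within late maturation, replicate 1 had the highest ratio, at 1.85, and it also had the lowest KTI1 value of its stage.

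The ratio of KTI3 to Glyma.08G341000, both on chromosome 8, had the narrowest span, 3.63 on the log2(value + 1) scale and 3.90 without a pseudocount. Its lowest stage depended on that choice: the seedling and early maturation means were 2.08 and 2.28 with the pseudocount, and 2.87 and 2.28 without it. The plain ratio was 7.22 to 13.8 at the cotyledon stage, 3.97 to 5.64 at early maturation and 13.98 to 20.03 at mid maturation. It was then 46.7 to 108 at late maturation, 24.4 to 94.0 in dry seed and 5.38 to 9.83 for seedlings. Late maturation and dry seed overlapped, with few reads of Glyma.08G341000 behind both. The ratio of KTI1 to Glyma.08G341000 had the widest span, 9.35 on the log2(value + 1) scale and 10.43 without a pseudocount. As a plain ratio it was 0.0683 to 0.189 at the cotyledon stage and 0.133 to 0.162 at early maturation, which overlapped, and 5.37 to 7.97 at mid maturation. The plain ratio was 45.2 to 88.9 in late maturation embryos and 78.9 to 271 in dry seed, which overlapped, and 1.83 to 3.50 for seedlings.

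**Figure D3:**
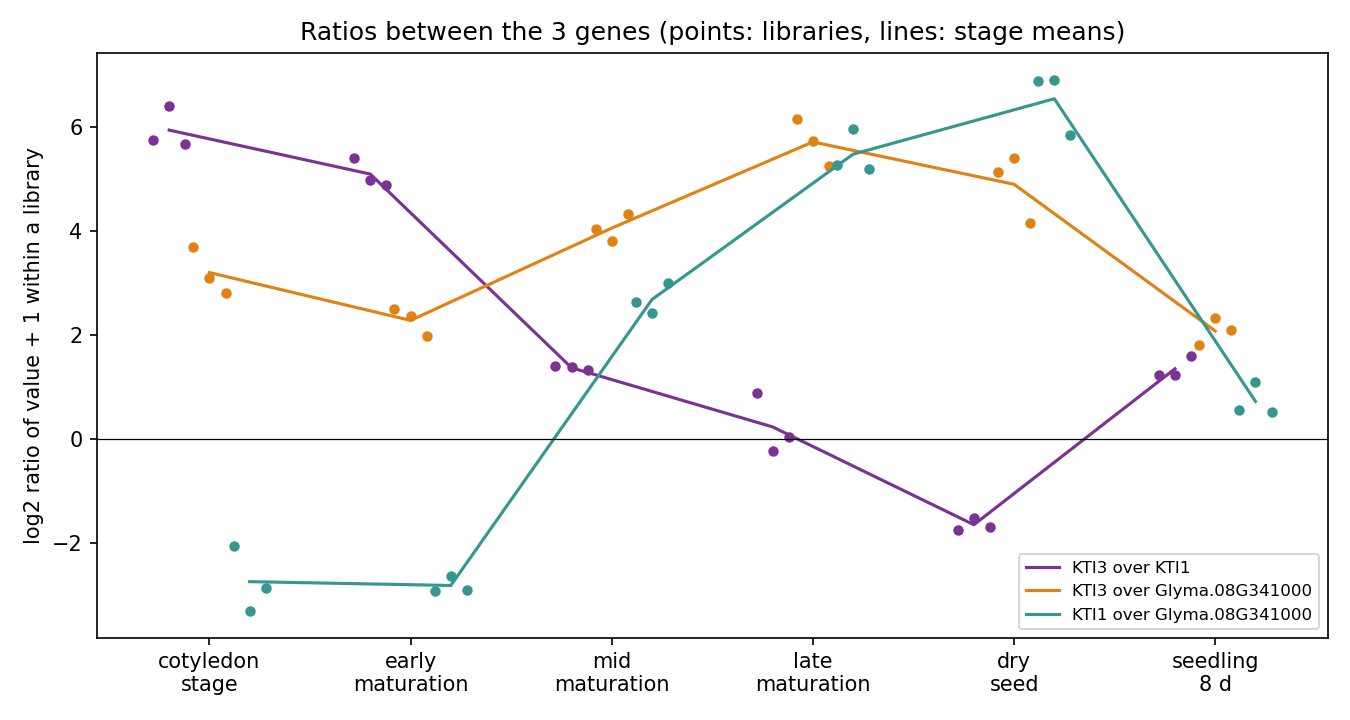
Log2 ratio of value + 1 between genes of the same library; points are libraries, lines join stage means. The mean of KTI3 over KTI1 was 5.94 at the cotyledon stage, 1.37 at mid maturation and -1.64 in dry seed, while KTI1 over Glyma.08G341000 was 2.68 at mid and -2.81 at early maturation.

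The make-up of the Kunitz reads shifted accordingly. KTI3 contributed 89.3% ± 2.69 of the reads of the 3 genes at the cotyledon stage, 80.9% ± 2.80 at early maturation, 69.1% ± 0.408 at mid maturation, 53.5% ± 9.79 at late maturation, 23.97% ± 1.53 in dry seed and, at the seedling stage, 68.8% ± 3.47 (SD, n = 3 at each stage). KTI1 contributed 1.09% ± 0.345, 2.39% ± 0.368, 26.7% ± 0.686, 45.7% ± 9.71, 75.5% ± 1.36 and 21.6% ± 3.35 at the same stages. Glyma.08G341000 was at its highest with 16.7% ± 2.51 at early maturation and at its lowest with 0.558% ± 0.357 in dry seed. By mean, KTI3 reads were the largest share at every stage except dry seed, where KTI1 reads were. These shares are of reads, with no correction for length.

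Across the 18 libraries, log2 values of KTI3 correlated with those of Glyma.08G341000 at Pearson's r = 0.955 and with those of KTI1 at 0.805, and KTI1 with Glyma.08G341000 at 0.656. These are descriptions of libraries that share 6 stages, and no p is given. Among 8685 other genes with a highest stage mean of at least 50, Glyma.08G341000 ranked 17 by its r with KTI3, and KTI1 ranked 282. The median r of that pool with KTI3 was -0.04, and 67 genes reached 0.9.

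The files give no gene names, and the gene table matched 0 of the 51546 identifiers, so names could not be looked up. The genes most like each Kunitz gene over the 18 libraries are therefore given by identifier only. For KTI1 they were Glyma.08G116300 (r = 0.985), Glyma.13G347600 (0.980), Glyma.10G246300 (0.979), Glyma.13G288100 (0.977) and Glyma.09G158600 (0.976). Each of these had its highest mean at mid maturation, between 1052 for Glyma.09G158600 and 72928 for Glyma.10G246300, and Glyma.08G116300 averaged 6.68, 4690, 50819, 270, 312 and 6.28 in stage order. For KTI3 they were Glyma.20G222600 (r = 0.984), Glyma.13G194400 (0.981), Glyma.07G272200 (0.979), Glyma.20G164700 (0.977) and Glyma.06G011700 (0.975). Of these, Glyma.20G164700 averaged 982 at mid and 1011 at early maturation, and Glyma.13G194400 averaged 4877 at mid and 955 at early maturation. A high r does not mean a change of like size. Glyma.20G222600 averaged 176 at early maturation and 14.6 in seedlings. At mid maturation and in seedlings, Glyma.07G272200 averaged 55.9 and 12.0, and Glyma.06G011700 183 and 8.40. KTI3 itself averaged 35649 and 7.70 there. For Glyma.08G341000 they were Glyma.05G244100 (r = 0.992), Glyma.06G072600 (0.990), Glyma.05G151300 (0.985), Glyma.14G170900 (0.982) and Glyma.15G154800 (0.981). Of these, Glyma.05G244100 averaged 1005, 858 and 4.44 at early, mid and late maturation, and Glyma.06G072600 averaged 26.6 at mid and 51.5 at early maturation and was without reads at late maturation and in dry seed.

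Genes with neighbouring identifiers were examined next, in identifier order since no coordinates were used. Of the 20 identifiers nearest to KTI1, 10 passed the filter for testing, and of the 24 around KTI3 and Glyma.08G341000, 21 did. On chromosome 1, 0 of the 10 were called higher in early maturation against the cotyledon stage, and 1 was called lower in late against mid maturation. On chromosome 8, 3 of the 21 were called higher at the step into early maturation and 5 were called lower at the step into late maturation. Of all tested genes, 8.53% and 23.6% were so called. Medians of the log2 differences were 0.02 on chromosome 1 and 0.05 on chromosome 8 at the step into early maturation, and -0.02 and 0.17 at the step into late maturation.

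The neighbours with a stage mean of at least 100 were highest at various stages. Glyma.01G096000 averaged 1431 ± 179 in dry seed and 14.1 ± 2.32 at mid maturation (SD, n = 3 each). Glyma.01G095500 was highest at early maturation, at 107 ± 12.0, and at 79.8 ± 11.6 in cotyledon-stage embryos. Glyma.08G341600, the identifier next to KTI3, was highest in seedlings, at 105 ± 15.2, and stood at 16.1 ± 2.48 at mid maturation. Glyma.01G094200 and Glyma.08G340500 ranged between 34.1 and 157 over all stages. Glyma.08G342300, 8 identifiers beyond KTI3, had the largest rise among them at the step into early maturation. It averaged 408 ± 65.6 in early maturation and 4.87 ± 0.628 in cotyledon-stage embryos (log2 difference 6.12, SE 0.23, limma adjusted p = 1.17e-14), was not called between mid and early maturation (506 ± 21.8 at mid maturation), and stood at 1.84 ± 0.485 in late maturation (log2 difference -7.49 from mid maturation, SE 0.23, limma adjusted p = 1.49e-16). It was also higher in seedlings, at 23.5 ± 4.97, than in dry seed, at 1.28 ± 1.14 (log2 difference 3.52, SE 0.23, limma adjusted p = 6.32e-12). How reads that match more than 1 gene were assigned is not given in the sources used here, so values of genes with near-identical copies are uncertain; the part of such reads in the Kunitz values was not tested.

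**Figure D4:**
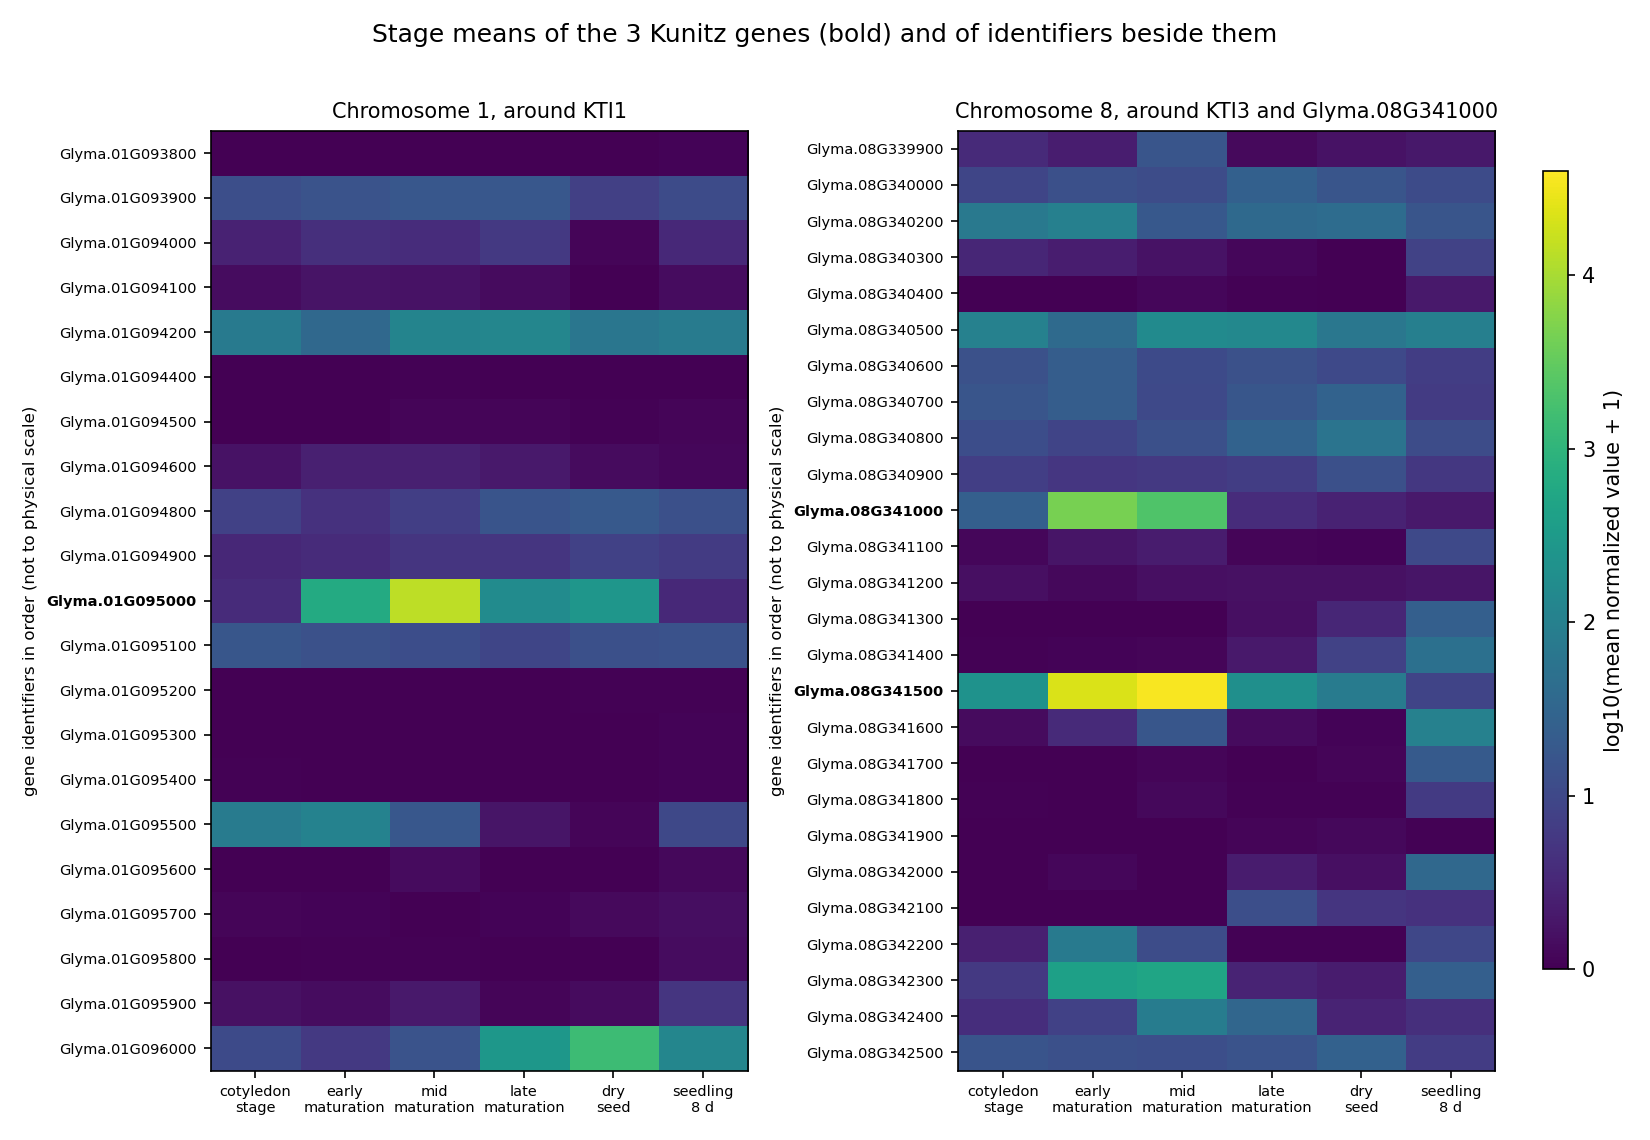
Stage means, as log10(mean normalized value + 1), of KTI1, KTI3 and Glyma.08G341000 (bold) and of the 10 identifiers on either side of each, in identifier order and not to physical scale. Beside the Kunitz genes, Glyma.08G342300 had the highest means shown at mid and early maturation, 506 and 408.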

How the data were processed

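Polyadenylated RNA of 18 libraries was sequenced, and each library has 1 deposited table. Per the submitters' processing notes, Bowtie 0.12.7 and edgeR 3.0.8 were used; for the build, annotation, counting rule and multiply matching reads the entry is: not given in the sources used here. The deposited signal values were whole multiples of 1 step per library: 927825 of 927828 values lay within 0.05 of a whole read. The implied factors matched recomputed TMM factors to a relative difference of at most 3.99e-08, so the values are CPM with TMM scaling.

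The gene table (59048 genes) matched 0 of the 51546 identifiers. Lists of other Kunitz, Bowman-Birk and storage protein genes and tissue markers, all defined by annotation, therefore had no members and are not reported, the labelled tissues could not be checked against markers, and no promoter or protein sequence was used.

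The main test was limma 3.58.1 (R 4.3.3), two-sided, on log2(value + 1), with a mean-variance trend, 1 mean per stage and Benjamini-Hochberg adjustment. Alternatives covered the pseudocount, filter, scaling, libraries in the fit, replicate block, trend, each library left out, library-size scaling and ratios without a pseudocount (both added after the data were seen), edgeR 4.0.16 and DESeq2 1.42.0 on recovered reads. The limma procedure and the ratio test were tested on simulated data. Ratios used scipy 1.17.1. Replicate numbers were not used as a pairing in the main test. Of 15 pairs with a shared number from adjacent stages, 2 showed a correlation of deviations over 0.1, in a range of -0.154 to 0.109. Pairs with different numbers were not compared, so the check cannot settle whether the numbers pair libraries. All replicate pairs differed by more than counting noise, with a lowest chi-square of 1.56 for each degree of freedom. Besides the 3 Kunitz genes, the named genes are the 5 most correlated with each and neighbours with a stage mean of at least 100. Genes, lists and tests were chosen with earlier results of these data known.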

Additional observations from a re-analysis of the deposited data

How the results depend on the processing

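The 24 log2 differences of the 3 genes (8 stage comparisons each) were recomputed under 17 other settings apiece, and 402 of 408 values kept their direction and call. Of the others, 2 lost a call, both for Glyma.08G341000 in mid against early maturation (-1.07 as reported): -0.996 after upper-quartile rescaling and, among fits that left out 1 library, -1.19 to -0.92, the last without mid maturation replicate 3; both are under the limit of 1 in size. With the replicate number as a block this difference stayed at -1.07 (limma adjusted p = 0.00121), and the replicate block changed no other call. The other 4 turned the sign of the uncalled KTI1 difference between seedlings and cotyledon-stage embryos (-0.08 as reported): 0.10 after median-of-ratios rescaling, 0.12 by DESeq2, and -0.24 to 0.0654 among fits that left out 1 library, positive at 0.0654 without cotyledon-stage replicate 3 and at 0.03 without seedling replicate 3. None of these was called. Median-of-ratios rescaling moved the median of all genes by 0.19 in that comparison. Library-size scaling only, added after the data were seen, kept direction and call in 23 of 24 values. It put the uncalled KTI3 difference between mid and early maturation at -0.071 (limma adjusted p = 0.739), not a detectable difference. For the ratios, 66 of 66 values, including those without a pseudocount, kept a permutation p of at most 3.00e-05. Shares of summed values equal shares of reads by construction. Values of Glyma.08G341000 after mid maturation rest on 22 to 38 reads per stage, and KTI1 in seedlings and at the cotyledon stage on 67 and 64, which limits what can be said of differences among those stages.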
